A study of Canis lupus familiaris with 30 samples.

Results

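Thyroid tissue both makes and uses thyroid hormone, and the genes described here carry out the steps after synthesis. DIO1 and DIO2 encode deiodinases, selenium-containing enzymes that remove an outer-ring iodine from thyroxine and so form triiodothyronine, the more active hormone, whereas DIO3 encodes the enzyme that inactivates both. DIO1 is abundant in normal thyroid, liver and kidney. THRA and THRB encode the nuclear receptors that bind triiodothyronine and switch target genes together with retinoid X receptor partners, corepressors and coactivators. Transporters in the plasma membrane let the hormones into and out of cells.

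The members were chosen by symbol (DIO1, DIO2, DIO3, THRA and THRB), and 4 of the 5 were found among 30424 genes in the table. The identifiers were ENSCAFG00000049055 for DIO1, ENSCAFG00000032243 for DIO2, ENSCAFG00000016173 for THRA and ENSCAFG00000005741 for THRB. No row carried the symbol DIO3, which was not analysed here. The data were gene counts from total RNA sequencing of 30 thyroid tumors taken from dogs, with 1 library a tumor. The study classed the tumors as follicular or medullary carcinoma, from staining and transcript data. The sample labels used here name every sample as tumor tissue and do not give the class, so the tumors were treated as 1 labelled group with no comparison between classes. The labels name no normal thyroid sample, treatment or genotype.

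Total counts per tumor ran from 12288945 to 45148677 with a median of 25569678, and 0 pairs of tumors held identical counts. A level is log2(count divided by the tumor's size factor + 1), where the size factor corrects for depth. Gene lengths were not used, so levels can be compared between tumors but not between genes. Ward clustering of 764 variable genes, with the members left out, put 5 tumors (TC1020, TC1473, TC1601, TC1936 and TC2289) on a branch of their own and the other 25 on a larger branch. Those 5 carried the highest levels of the C-cell genes SCG2 and RET without overlap with the other 25. Across all genes, 2.13% of 18711 did not overlap between the branches. The C-cell score, the mean level of 6 C-cell genes each set to its median, was 6.31 to 10.25 in the 5. The next highest was 4.06, in TC22. C-cell genes were not kept out of the clustering, so their separation is no test of the branches. The thyroid scores of the 5, the mean level of 10 thyroid genes each set to its median, ran from -8.00 to -1.50. TC1088 lay on the larger branch with a thyroid score of -7.95. The branches were built here from the expression data, and the labels do not give them as groups. No test was made between them, and correlations were taken only within the 25 tumors. In bulk tumor tissue, fewer cells of a type and less RNA per cell cannot be told apart.

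DIO1 varied over a wide range between these tumors. Its level was 2.28 in the lowest tumor, 9.55 at the median and 11.86 in the highest, on 3 to 4266 counts. Its SD of 2.44 over the 30 tumors exceeded that of 95.6% of genes. The highest level was in TC1869, followed by TC22 at 11.36, TC2011 at 11.15 and TC2110 at 11.03. At the low end, the level was 2.28 in TC2289, 2.77 in TC1020, 4.16 in TC1088, 5.36 in TC815 and 6.12 in TC2089. The counting intervals of TC2289 and TC1020 overlapped, so their order is not resolved at this depth. TC1088, TC815 and TC2089 lay on the larger branch, where every other tumor was at 8.31 or higher. Of the 5 tumors that stood apart, TC1473 was at 6.52, TC1601 at 7.52 and TC1936 at 8.42. All 5 were below the larger branch's median of 9.80, but their range overlapped with that of the larger branch.

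DIO2, the deiodinase that supplies triiodothyronine inside cells, had low counts in nearly every tumor. The median count was 9.5, and 15 of the 30 tumors reached 10 counts. Its level was 0.00 in the lowest tumors, 3.27 at the median and 8.60 in the highest. TC538 and TC1241 had 0 counts, which at this depth does not show absence. The exception was TC1936, 1 of the 5 tumors that stood apart, with 366 counts and a level of 8.60 (95% counting interval 8.45 to 8.75). The next tumors were TC1473 at 5.29 (4.83 to 5.72), TC2089 at 5.28 (4.74 to 5.78) and TC640 at 5.23 (4.75 to 5.68), whose intervals overlapped each other and did not reach that of TC1936. TC1020 was at 3.95, TC1601 at 4.31 and TC2289 at 2.61. Without TC1936 and the other 4, the highest of the 25 tumors was 5.28.

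**Figure D1:**
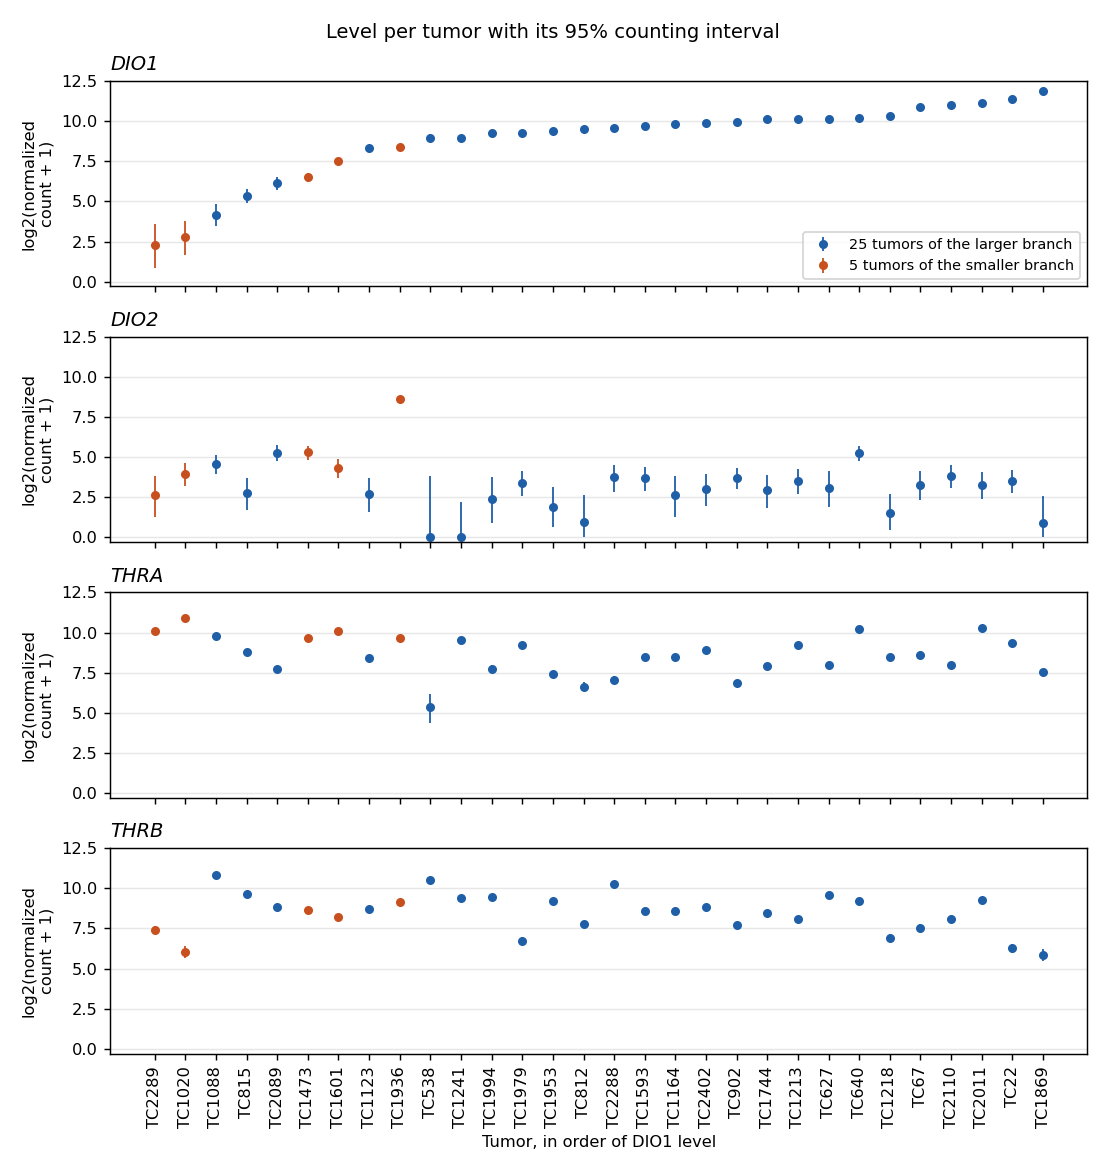
Level of DIO1, DIO2, THRA and THRB, as log2(normalized count + 1), in each of the 30 tumors in order of DIO1 level, with bars for the 95% counting interval and color for the branch. DIO1 spans 2.28 to 11.86, and DIO2 stays low except in TC1936 at 8.60. THRA is in the upper part of its range in the 5 tumors of the smaller branch. These overlap with the larger branch, where THRA reaches 10.29 in TC2011 and 10.24 in TC640.

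THRA, the receptor gene that is expressed in most tissues, was measured with 11 to 1946 counts. Its level was 5.34 in the lowest tumor, 8.54 at the median and 10.88 in the highest. The lowest tumor was TC538, which was also the shallowest library, and the next were TC812 at 6.64 and TC902 at 6.83. All 5 tumors that stood apart were in the upper part of the range, with TC1020 at 10.88, TC1601 at 10.13, TC2289 at 10.08, TC1473 at 9.67 and TC1936 at 9.65. They overlapped with the 25 other tumors, of which TC2011 reached 10.29, TC640 10.24 and TC1088 9.78. The larger branch alone had a median of 8.45 and an SD of 1.17.

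THRB, the receptor gene known for its part in feedback in the pituitary and in the liver response, had 65 to 1808 counts. Its level was 5.85 in the lowest tumor, 8.61 at the median and 10.82 in the highest. TC1088 was highest, followed by TC538 at 10.54 and TC2288 at 10.30. TC1869, which had the highest DIO1 level, had the lowest THRB level, and TC1020 at 6.04 and TC22 at 6.28 came next. The 5 tumors that stood apart were spread over the range, with TC1473 at 8.62, TC1601 at 8.23, TC1936 at 9.14 and TC2289 at 7.41 beside TC1020.

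The balance between the receptors also differed between tumors. The log2 ratio of THRB to THRA counts ran from -4.85 in TC1020 through a median of 0.02 to 5.18 in TC538, where THRA had 11 counts. A ratio of 0 has no meaning of its own here, since the transcripts differ in length and gene counts merge the isoforms of each receptor. In the 5 tumors that stood apart the ratio lay between -4.85 and -0.51, and in the larger branch between -3.09 and 5.18, so the ranges overlapped. Across all genes, 2.13% of 18711 did not overlap between the branches, and 0 of the 4 members were among them.

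DIO1 and the thyroid score moved in the same direction over the 25 tumors. DIO1 was itself left out of the score, which averages TG, TSHR, PAX8, SLC5A5 (the iodide importer) and 6 other genes of thyroid function. Spearman's rho was 0.60 (n = 25; p = 0.00219 by permutation, adjusted p = 0.107 over all 18106 genes tested), so DIO1 did not pass the threshold of 0.05 in the rank test, whereas 0.955% of all genes did and 12.1% had an unadjusted p under 0.05. Pearson's r was 0.75 (permutation p = 0.00016, adjusted p = 0.0241 over all genes), and 0.49 (permutation p = 0.0173) without TC1088 and TC1869, the tumors farthest from the median score. With the score as covariate in edgeR's quasi-likelihood test, DIO1 rose by 1.26 log2 units per SD of the score (adjusted p = 0.00472), and DESeq2 gave 1.27 ± 0.21 (SE; adjusted p = 2.3e-07). The call thus depends on the test, and without TC1088 the rank correlation was 0.54 (permutation p = 0.00691). In simulated data the rank test called 23 of 94 genes with a slope of 1 log2 unit per SD. DESeq2 called 64 of 17906 unrelated genes there, and edgeR 1.

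The other members showed smaller correlations with the thyroid score. The rank correlation was 0.06 for DIO2, -0.25 for THRA and -0.21 for THRB. In edgeR the slopes per SD of the score were -0.25 for DIO2 (adjusted p = 0.722), -0.26 for THRA (adjusted p = 0.574) and -0.40 for THRB (adjusted p = 0.242). None of the 3 passed the threshold in the rank test, edgeR or DESeq2.

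**Figure D2:**
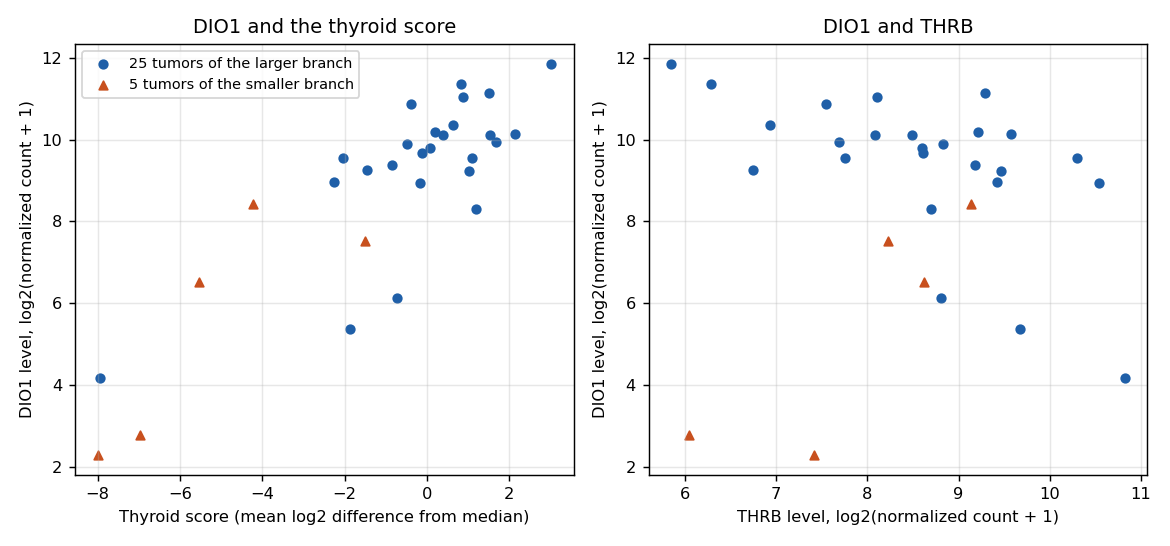
DIO1 level against the thyroid score (left, mean log2 difference of the score genes from their medians) and against the THRB level (right), 1 point per tumor, with triangles for the 5 tumors of the smaller branch. Among the 25 tumors rho is 0.60 on the left, with TC1088 alone at the far left, and -0.57 on the right.

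DIO1 and THRB went in opposite directions. The rank correlation was -0.57 over the 25 tumors (p = 0.00347 by permutation, adjusted p = 0.197), r was -0.57 (permutation p = 0.00278), and without TC1088 and TC815 r was -0.45 (permutation p = 0.031). In the rank test it was 1 of 6 pairs of members and had the only unadjusted p under 0.05, and 0 of the 6 pairs passed the adjusted threshold by rank or with Pearson's r. THRA and THRB had a rho of 0.03, and DIO1 and DIO2 one of 0.10. THRA and DIO2 had a rho of 0.28 and an r of 0.42 (permutation p = 0.0352).

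Total counts moved with THRB and, short of the adjusted threshold, with DIO1. The rank correlation with total counts was -0.67 for THRB (p = 0.00031 by permutation, adjusted p = 0.0463; r = -0.73, and -0.59 without TC1869 and TC538), where 1.55% of all genes passed the threshold and 28.2% had an unadjusted p under 0.05. For DIO1 it was 0.54 (p = 0.00624 by permutation, adjusted p = 0.0791; r = 0.42, and 0.35 without TC1869 and TC538). With the size factor, the depth measure behind the levels, rho was -0.62 for THRB (permutation p = 0.00125) and 0.38 for DIO1 (permutation p = 0.0594). With ranks adjusted for total counts, the correlation of DIO1 with THRB was -0.33 (permutation p = 0.102, adjusted p = 0.749), and that of DIO1 with the thyroid score was 0.52 (permutation p = 0.00813). The rho with total counts was 0.04 for DIO2 and 0.19 for THRA.

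**Figure D3:**
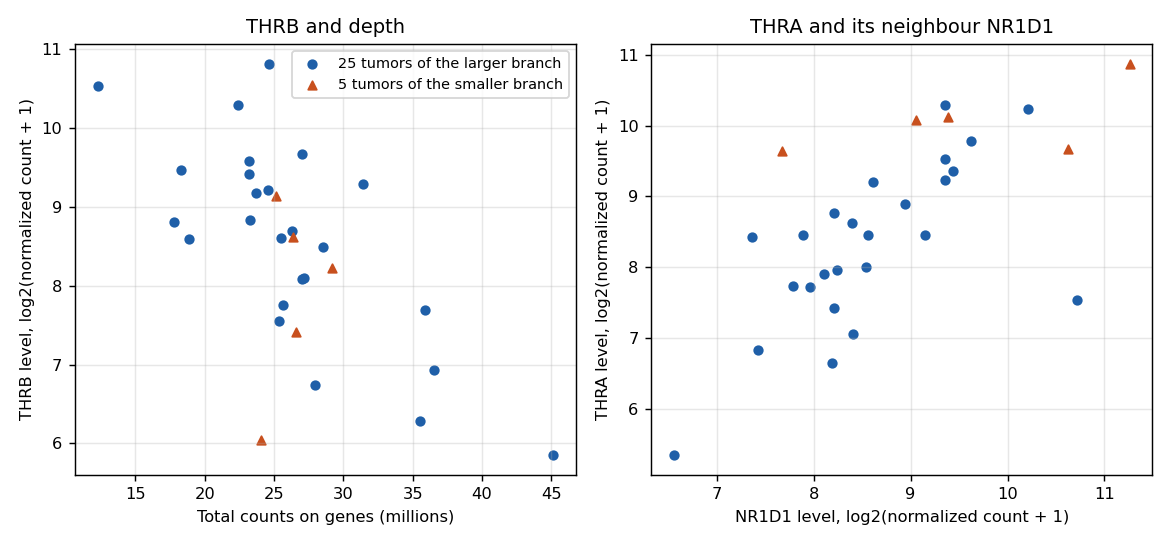
THRB level against total counts on genes (left) and THRA level against the level of its neighbour NR1D1 (right), 1 point per tumor, with triangles for the 5 tumors of the smaller branch. THRB is lower in the more deeply sequenced of the 25 tumors (rho -0.67), and THRA tends to be high where NR1D1 is (rho 0.68).

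Markers of other cells that thyroid tumor tissue can hold were set against each member. Over 9 scores and 4 members, 0 of 36 correlations passed the adjusted threshold in the rank test and 3 had an unadjusted p under 0.05. Among all genes the share passing the adjusted threshold was 2.73% for endothelium, 0.574% for stroma, 0.122% for proliferation and for adipocytes, 0.0663% for leukocytes, and 0% for C cells, skeletal muscle and parathyroid. An unadjusted p under 0.05 was found in 19.9% of all genes for C cells, 15.6% for endothelium, 14.6% for adipocytes, 13.1% for proliferation, 11.1% for parathyroid, 9.81% for stroma, 7.09% for skeletal muscle and 6.04% for leukocytes. Apart from DIO1 with the thyroid score, these were DIO1 with the C-cell score (rho 0.45, permutation p = 0.0271, adjusted p = 0.208, r = 0.39, and 0.34 without TC1213 and TC22) and THRB with the endothelium score (rho -0.45, permutation p = 0.0244, adjusted p = 0.239). Pearson's r over the 36 added 1 call, that of DIO1 with the thyroid score given above, and edgeR and DESeq2 were run for the thyroid score alone. For DIO2 the highest rho was 0.38 with skeletal muscle, whose score was highest in TC2089, a tumor with 1 of the higher DIO2 levels, and its part in that level was not tested. THRA ranged from -0.31 with stroma to 0.24 with proliferation.

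**Figure D4:**
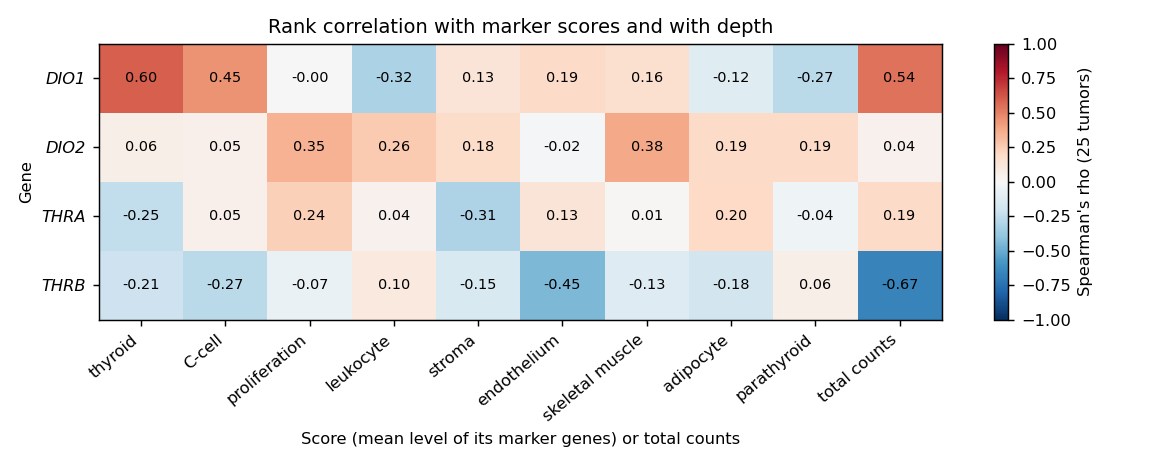
Spearman's rho over the 25 tumors between each member (rows) and 9 marker scores or total counts (columns), with color from -1 in blue to 1 in red. The strongest values are 0.60 for DIO1 with the thyroid score and -0.67 for THRB with total counts.

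Genes of hormone synthesis had positive correlations with DIO1, although none was called. All 9 genes of the list passed the count filter, and 6 of them are also score genes, so these values and the thyroid score share data. In the rank test 0 were called with DIO1, where 0% of all genes were called, and 6 of the 9 had an unadjusted p under 0.05 against 15.1% of all genes. No gene of any list named here was called with a member under any of the alternatives, Pearson's r included. The median rho of the 9 genes with DIO1 was 0.53, against 0.00 over all genes tested. With total counts their median rho was 0.32, against 0.02 over all genes, and DIO1 itself was at 0.54. By permutation 0 of the 9 had an unadjusted p under 0.05 with total counts. DUOX1, an oxidase that supplies hydrogen peroxide for iodination, was at 0.64 (permutation p = 0.00093, adjusted p = 0.165), and its maturation factor DUOXA1 at 0.60. DUOX2 and DUOXA2, the other pair, were each at 0.55. TC1088 and TC815 weighed on these values, since r for DUOX2 was 0.73 with them and 0.34 without, and r for DUOX1 was 0.73 and 0.53. The median rho of the list was -0.06 with DIO2, -0.13 with THRA and -0.28 with THRB. With THRA, the thyroglobulin gene TG was at -0.54 (permutation p = 0.00668, adjusted p = 0.21).

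Thyroid hormone transporters and binding proteins ranged from well measured in every tumor to near 0 counts in many. SLC7A8, a large neutral amino acid transporter, was at 8.30 in the lowest tumor, 12.01 at the median and 14.38 in the highest, and its heavy chain partner SLC3A2 ran from 10.12 through 11.95 to 13.53. SLC7A5 lay between 6.83 and 12.38. Over all tumors, SLC16A10 at 2.88 to 9.58 and SLCO1C1 at 0.00 to 9.02 varied more widely. So did CRYM, whose product binds triiodothyronine in the cytosol, at 0.00 to 7.78. The highest SLC16A10 levels were on the smaller branch, in TC1936 (9.58), TC1473 (9.33) and TC1020 (9.18). On the larger branch SLC16A10 ran from 2.88 to 7.29. That spread was not wider than those of SLC7A8 (9.37 to 14.38) and SLC7A5 (6.83 to 11.61) on the same branch. Of the 11 genes measured, 9 passed the filter, and SLC17A4 and SERPINA7 did not, with at most 4 and 16 counts in a tumor.

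None of these 9 passed the adjusted threshold with any member, against 0% of all genes with DIO1, DIO2 and THRB and 0.0663% with THRA. An unadjusted p under 0.05 was reached by 0 of the 9 with DIO1, DIO2 and THRB and by 2 with THRA, against 15.1%, 3.12%, 19.9% and 13.1% of all genes in that order. Those were SLC10A1, a bile acid transporter that also carries thyroid hormone (rho -0.56, permutation p = 0.00479, adjusted p = 0.19), and SLC7A5 (rho 0.43, permutation p = 0.0314, adjusted p = 0.33). The median rho of the list was 0.07 with DIO1, -0.08 with DIO2, -0.12 with THRA and 0.00 with THRB.

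The receptor partners and coregulators likewise gave no call with a member, although all 15 genes passed the filter. An unadjusted p under 0.05 was reached by 0 with DIO1, 0 with DIO2, 1 with THRA and 2 with THRB. The shares of all genes were 15.1%, 3.12%, 13.1% and 19.9% in that order. With THRB, TBL1XR1, a subunit of the corepressor complex, was at 0.51 (permutation p = 0.00997, adjusted p = 0.189) and GPS2, another subunit, at -0.48 (permutation p = 0.0171, adjusted p = 0.199). Without TC1869 and TC22, rho was 0.39 for TBL1XR1 and -0.33 for GPS2. TBL1XR1 was also related to total counts at -0.71 (adjusted p = 0.0463), as THRB was. With THRA the strongest was RXRG, a retinoid X receptor, at 0.45 (adjusted p = 0.298), where r was 0.10 without TC2011 and TC538.

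Genes that act on the deiodinases themselves also gave no calls. All 6 measured genes of selenoprotein synthesis passed the filter, and the strongest were PSTK, a kinase of selenocysteine transfer RNA, at -0.52 with DIO2 (permutation p = 0.00775, adjusted p = 1) and SEPSECS at -0.45 with DIO1 (permutation p = 0.0241, adjusted p = 0.272). Of the 4 genes of DIO2 ubiquitination, WSB1, which recognizes the enzyme for degradation, was at -0.49 with DIO2 (permutation p = 0.015, adjusted p = 1), and its r was -0.50, or -0.20 without TC1241 and TC538, the tumors with 0 DIO2 counts. Transcript levels do not measure this step, which acts on the protein.

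Genes known to respond to triiodothyronine showed no common direction with the receptors. Of 15 measured, 13 passed the filter, 0 were called with a member, and their median rho was 0.18 with DIO1, 0.01 with DIO2, 0.03 with THRA and -0.07 with THRB. DBP, a transcription factor of the circadian clock, was at 0.66 with DIO1 (permutation p = 0.00052, adjusted p = 0.147) and at 0.47 with THRA (permutation p = 0.0188, adjusted p = 0.28). ME1, the cytosolic malic enzyme, was at -0.68 with THRA (permutation p = 0.00026, adjusted p = 0.0841), and CPT1A, the gate of mitochondrial fatty acid entry, at 0.55 (adjusted p = 0.188). UCP3, a mitochondrial carrier, was called with the thyroid score (rho 0.90, adjusted p = 0.00905) and was at 0.53 with DIO1 (adjusted p = 0.213). The list's direct targets KLF9 and HR were not called, and KLF9 was at 0.42 with DIO1 (permutation p = 0.0355, adjusted p = 0.303).

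**Figure D5:**
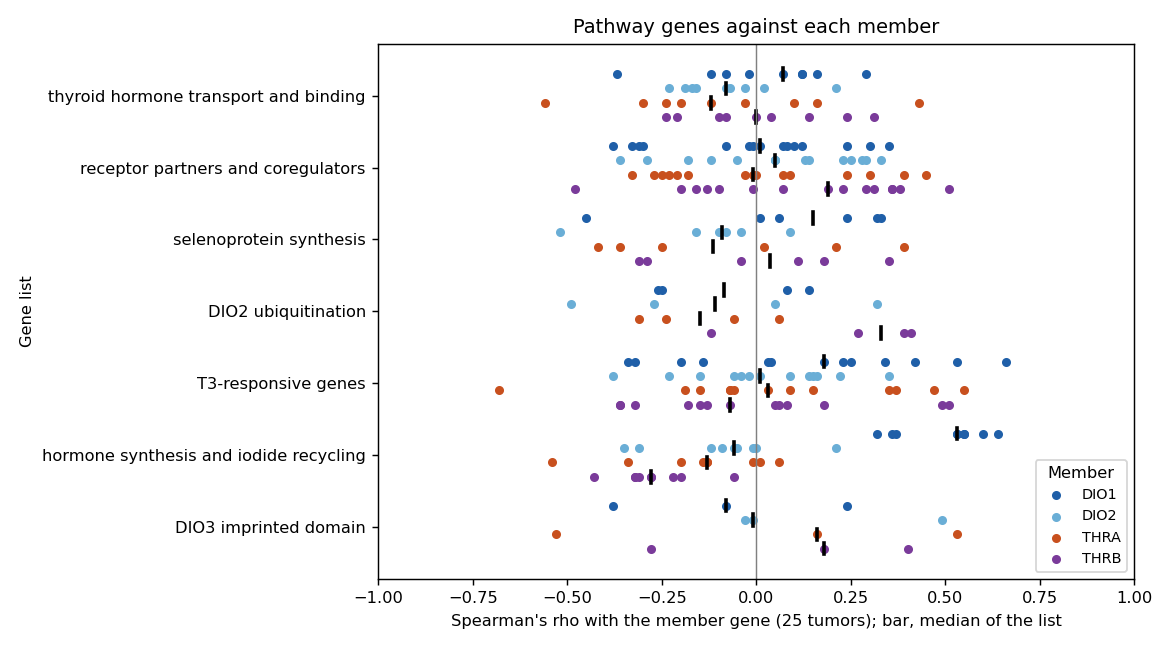
Spearman's rho over the 25 tumors of each pathway gene with DIO1, DIO2, THRA and THRB, 1 point per gene, with a black bar for the median of each list. The hormone synthesis genes lie to the right with DIO1 (median 0.53), while the other medians lie between -0.28 and 0.33.

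In place of DIO3, the genes of its imprinted domain were looked at. DLK1 and RTL1, the other genes of the domain that are expressed from the paternal copy, had median counts of 0, with up to 302 and 665 counts in single tumors. BEGAIN, which lies beside the domain, was at 8.19 to 10.04 in the 5 tumors that stood apart, with no overlap with the 25 others. Among all genes, 2.13% of 18711 likewise did not overlap, and BEGAIN was not kept out of the clustering that gave the branches. Within the 25 its rho was 0.53 with THRA (permutation p = 0.0069, adjusted p = 0.212) and 0.49 with DIO2 (permutation p = 0.0136, adjusted p = 1). PPP2R5C, a phosphatase subunit gene of the same list, went the opposite way with THRA at -0.53 (permutation p = 0.00821, adjusted p = 0.221). These values say nothing on the level of DIO3 itself.

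The genes most like each member were sought among named genes whose normalized counts had a median of 100 or more. For DIO1 the highest rho over the 25 tumors was 0.76 for CLIP2 and KIAA1191 and 0.75 for SIRT2, a deacetylase, and the lowest was -0.76 for ARNT, the dimer partner of hypoxia-inducible factors, with adjusted p of 0.0647 to 0.0931 for the 6 genes most alike and most opposed. For DIO2, EPHB6 led at 0.64 and TTC4 was lowest at -0.70, each with an adjusted p of 1. For THRB, TCP11L1 was highest at 0.76 and DNAJB12 and REM1 lowest at -0.74, with adjusted p of 0.136 and 0.151. In the rank test 0 genes were called with DIO1, DIO2 or THRB, while 15.1%, 3.12% and 19.9% had an unadjusted p under 0.05. With Pearson's r 0 genes were called with DIO1, 0 with DIO2 and 8 with THRB, and with TMM scaling 12 were called with DIO1 by rank. Adjusting ranks for total counts brought the number of genes with an unadjusted p under 0.05 from 3596 to 686 for THRB, and from 2728 to 1381 for DIO1.

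THRA had 12 called genes in the rank test, or 0.0663% of those tested. The 8 that moved with THRA were 0.0442% of genes and the 4 that moved against it 0.0221%, and 13.1% had an unadjusted p under 0.05. CERK, the ceramide kinase, was at 0.81 and KIAA1614 and PKDCC at 0.78 (adjusted p = 0.0362 each). ARG2, the mitochondrial arginase, was at -0.81 (adjusted p = 0.0362) and PSMA6, a proteasome subunit, at -0.77 (adjusted p = 0.0402). Without TC538, the shallowest tumor with the lowest THRA level, 0 genes passed and 1759 had an unadjusted p under 0.05, whereas Pearson's r over the 25 tumors called 425. The r of CERK was 0.84 over the 25 tumors and 0.80 without TC2011 and TC538, and that of ARG2 was -0.79 and -0.70.

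Genes next to each member on the chromosome were compared last. NR1D1, a clock gene that lies tail to tail with THRA, was at 0.68 with THRA (permutation p = 0.00025, adjusted p = 0.0838), and 0.221% of all genes had a higher rho. Its r was 0.66, and 0.53 without TC2011 and TC538. Whether reads were counted by strand is not given in the sources used here, so reads shared by the ends of these genes cannot be told apart, although their annotated spans did not overlap in the RefSeq table for UU_Cfam_GSD_1.0. Farther along, RAPGEFL1 was at 0.55 (adjusted p = 0.188) and MED24 at 0.44 (adjusted p = 0.323), and 0 of the 8 neighbours tested passed. THRB was at 0.33 with NR1D2 and at 0.05 with RARB. DIO2 was at 0.46 with ALKBH1 (permutation p = 0.022, adjusted p = 1), where 0.442% of all genes had a higher rho, and at -0.05 with TSHR, the thyrotropin receptor gene close by, and the 9 neighbours of DIO1 lay between -0.27 and 0.30.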

How the data were processed

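The authors extracted RNA from frozen canine thyroid tumors, sequenced ribosome-depleted total RNA in read pairs, and counted reads per gene with STAR on CanFam3.1. The deposited table holds raw counts per gene for 30 tumors, and 0 columns belonged to no sample. Here counts were divided by median-of-ratios size factors (from 15611 genes, 0.279 to 1.62) and taken as log2 with a pseudocount of 1. Intervals are exact Poisson at 95% and cover counting error only, and depth (12288945 to 45148677 counts) limits DIO2 most. Ward clustering used genes with mean above 2 and variance above 6. Spearman's rho of each gene with at least 10 counts in at least 5 of 25 tumors (18106 genes) was tested by 100000 permutations, two-sided, with Benjamini-Hochberg adjustment over all genes and a threshold of 0.05, and 1e-05 is the smallest p these can give. Pearson's r was permuted likewise. Alternatives were TMM scaling, a pseudocount of 8, no filter, left-out tumors, Pearson's r, a unit-variance score, and edgeR 4.0.16 and DESeq2 1.42.0 with the score as covariate. Ranks adjusted for total counts were added after seeing the data. Python 3.11.15, scipy 1.17.1 and R 4.3.3 were used, and methods were tested on simulated data. Of 17906 unrelated genes, DESeq2 called 64, edgeR 1 and the rank test 0. Of 94 genes given a slope of 1 log2 unit per SD of the score, the rank test called 23, edgeR 54 and DESeq2 67. Of 106 genes given 0.5, these called 4, 22 and 31. In this simulation the rank test thus missed most related genes. The genes were simulated independently of each other, so these rates need not hold for the tumors. A gene that the rank test did not call may still be related. Members and lists were chosen with earlier results of these data known. Named genes were taken from the members, the lists, the 3 highest and 3 lowest genes per member, and 5 neighbours on each side. From the lists, genes of large absolute rho were named, and others for their level or function. The genes under other observations were named after the values were seen. Neighbours came from the RefSeq table (15340 of 15746 symbols matched). The study's sequenced cases were separate dogs, so p-values measure the spread between dogs. Some genes are not reported here.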

Additional observations from a re-analysis of the deposited data

How the results depend on the processing

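The number of genes related to the thyroid score was 173, and it was 109 with no count filter, 91 without TC1088, 287 with Pearson's r, 96 with a unit-variance score, 972 with edgeR (329 positive, 643 negative) and 1722 with DESeq2 (927 positive, 795 negative). The 12 genes related to a member, all of them with THRA, became 24 with TMM scaling, 0 with no count filter, 0 without the shallowest tumor and 433 with Pearson's r. DIO1 with the thyroid score passed the threshold with Pearson's r (0.75), edgeR (1.26 log2 units per SD) and DESeq2 (1.27), and not with rho, which stayed at 0.52 to 0.62 under the other alternatives. The cause of these differences was not tested. No other alternative crossed the threshold or moved a count by over 1.5 times, but small correlations changed sign. DIO2 with the thyroid score (0.06) was -0.09 with Pearson's r and -0.25 with edgeR and DESeq2, THRB with that score (-0.21) was 0.03 with ranks adjusted for total counts, and Pearson's r was -0.21 for DIO2 with DIO1, -0.05 for THRA with DIO1 and -0.06 for THRB with THRA. Without TC1088 THRB had -0.09 with THRA and -0.08 with DIO2. For the members with the other 8 scores, 16 of 224 alternatives had another sign than the main value. No paired analysis was possible because all tumors belong to 1 group. Counts below 10 in 15 of 30 tumors limit DIO2. Its correlations were limited further. TC1936, TC1473, TC1601 and TC1020, which reached 10 counts, were on the smaller branch and took no part in them.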

Other observations

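The 5 genes of lowest rho with THRA that could be placed in the RefSeq table all lay on the chromosome that carries DIO2, an observation made after the values were seen. They were ARG2 (-0.81), GCSAML (-0.79), PSMA6 (-0.77), POLE2 (-0.71) and FKBP3 (-0.70). In the rank test POLE2 (adjusted p = 0.0687) and FKBP3 (adjusted p = 0.0797) were not called, and without TC538 no gene was called with THRA. Of the 100 lowest genes 8 lay there and of the 100 highest 0, against 404 of all 13011 placed genes (3.11%). DIO2 itself had a rho of 0.28 with THRA.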
